A study of Mus musculus with 8 samples.

Results

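Macroautophagy wraps cytoplasm in a double membrane, the autophagosome, and delivers it to lysosomes. It starts with a kinase complex built around Ulk1 and Rb1cc1, continues with the lipid kinase complex of Pik3c3 and Becn1, and needs an enzyme cascade that joins Atg8 family proteins to lipid so that cargo receptors such as Sqstm1 can tether their load. Part of the same machinery also marks phagosomes in cells that engulf dying cells, and dendritic cells use it to route material toward antigen presentation. The transcripts of this core machinery were read here in mouse dendritic cells that had engulfed ferroptotic cells. The genes were 39 symbols listed by role and matched through their Ensembl identifiers to 39 of the 55487 genes of the count table. They comprised 5 genes of the initiation complex, 6 of the nucleation complex, 6 for membrane supply, 7 conjugation genes, 4 Atg4 proteases, 5 Atg8 family genes, 5 cargo receptors and 1 tether for fusion with lysosomes. All 39 genes passed the filter on low counts, and the lowest count of any of them in any library was 281.

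BMDC, dendritic cells grown from bone marrow in GM-CSF, came from wild-type C57/bl6 mice, were kept for 10 days in culture and were labelled with a violet cell tracer. One group of 4 libraries came from untreated BMDC. The other group of 4 libraries, BMDC-fer, came from the same kind of BMDC after 4 h with Jurkat cells, a human T-cell leukemia line killed by ferroptosis with 0.5 µM ML162 for 14 h, and sorting of the BMDC that had taken up Jurkat material. The sources used here do not state that untreated BMDC were sorted, so engulfment, co-culture and sorting cannot be told apart. Nor do they say whether replicates are separate cultures or animals, and p-values then measure only the spread between these libraries. In bulk RNA, fewer cells that express a gene and less RNA per cell cannot be told apart either. Levels are given as CPM, read counts relative to library size after TMM scaling, and fold changes as log2 of BMDC-fer over BMDC.

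Total counts per library lay between 39326672 and 50532209, and mitochondrial genes held between 3.68% and 4.95% of them. In both groups, replicates 1 and 2 stood apart from replicates 3 and 4, and the labels name no batch for this, so values are also given within each replicate pair. The label of dendritic cells was checked on 8 markers. Itgax was high in both groups, with means of 1110 CPM for BMDC and 1033 CPM for BMDC-fer. Flt3 and Zbtb46 were scarcer, at means of 3.92 and 19.8 CPM in BMDC and 0.229 and 4.87 CPM in BMDC-fer. Every one of these markers had a log2 fold change below 0, among them Itgax at -0.10, Batf3 at -0.26, Cd74 at -1.15 and H2-Ab1 at -1.62. The summed level of these 8 markers was 6690 to 14722 CPM in BMDC and 3094 to 7254 CPM in BMDC-fer, with 0 genes called higher and 3 called lower (Flt3, Ccr7 and Cd86). Of 8 neutrophil markers 4 were called lower, with a summed level of 44.7 to 261 CPM in BMDC and 13.9 to 43.7 CPM in BMDC-fer and none at 0 everywhere. Of 8 macrophage markers 1 was called lower, with a summed level of 2489 to 3443 CPM in BMDC and 2948 to 4630 CPM in BMDC-fer, and 8 mast cell and basophil markers summed to 22.0 to 29.9 CPM and 5.94 to 22.4 CPM, where 2 of the 8 passed the filter and neither was called. The part of these cells in the results below was not tested. Jurkat cells are of T-cell type, so 10 mouse T-cell genes were read too, and 4 of them passed the filter. All 10 together summed to 36.6 to 43.9 CPM in BMDC and 35.7 to 56.8 CPM in BMDC-fer, mostly from Cd28 and Lat, which untreated BMDC also held, and 1, Lck, was called lower. None of the remaining 8 exceeded 23 counts in a BMDC-fer library, and in that group Cd3d and Cd3e reached 6 counts, Cd247 20, Lck 17, Cd3g 23 and Trac 2. Untreated BMDC reached 15 counts of Cd3d and 191 of Cd3g.

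Of the 39 genes, 2 were called, meaning an adjusted p no higher than 0.05 together with a log2 fold change of at least 0.58 in either direction, against 9.38% of the 15411 genes tested. Vmp1 was the 1 called higher (background 3.47%) and Uvrag the 1 called lower (background 5.91%). The share of the core genes called, 5.13%, lay below the background but rests on 2 genes. With a block for the replicate number the share was 12.8%, against 13.0% of all genes tested. The positions of Vmp1 and Uvrag and the 250 bases before their starts are shown because they carry the 2 calls made without a block. Vmp1 lies at chr11:86583865-86683836 on the minus strand of GRCm38, and Uvrag at chr7:98885021-99141141, also on the minus strand. The sequences come from RefSeq (GRCm38.p6), Vmp1 from chr11:86683837-86684086 and Uvrag from chr7:99141145-99141394, both read on the minus strand, and capitals mark a match to the antioxidant response core described further down.
Vmp1 upstream: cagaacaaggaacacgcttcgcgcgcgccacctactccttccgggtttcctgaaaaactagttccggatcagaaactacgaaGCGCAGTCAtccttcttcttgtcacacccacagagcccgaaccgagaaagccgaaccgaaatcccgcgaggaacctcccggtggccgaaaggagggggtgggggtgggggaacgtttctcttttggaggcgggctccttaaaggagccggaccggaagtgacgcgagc
Uvrag upstream: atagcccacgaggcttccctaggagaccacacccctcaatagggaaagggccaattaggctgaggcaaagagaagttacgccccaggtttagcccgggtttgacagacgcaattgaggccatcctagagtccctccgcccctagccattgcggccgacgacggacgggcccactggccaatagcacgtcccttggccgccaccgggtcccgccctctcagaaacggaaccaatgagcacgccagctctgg

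Vmp1 encodes a membrane protein of the endoplasmic reticulum that moves lipids between the faces of the membrane and is needed for autophagosomes to form and detach. Its level was 86.6, 86.0, 94.9 and 86.2 CPM in BMDC replicates 1 to 4 and 162, 155, 171 and 172 CPM in BMDC-fer replicates 1 to 4. Every BMDC-fer library lay above every BMDC library, and the spread within each group was small beside the gap between them. The means were 88.4 ± 4.30 CPM (SD, n = 4) and 165 ± 7.89 CPM (SD, n = 4), a log2 fold change of 0.90 with a standard error of 0.087 and an adjusted p of 0.00207. The 2 replicate pairs gave nearly the same value, 0.88 for replicates 1 and 2 and 0.92 for replicates 3 and 4. Vmp1 was called in all 8 fits with 1 library left out. An exon at the 3′ end of Vmp1 contains Mir21a on the same strand, the precursor of a microRNA abundant in myeloid cells, which is printed to show what else lies in the counted region. Its mature 5′ strand at chr11:86584120-86584141 reads, with the seed (bases 2 to 8) in capitals:
mmu-miR-21a-5p: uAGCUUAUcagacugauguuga
The shared stretch was 92 bases, and Mir21a itself had 0 counts in every library, so its level was not measured here. In all, 2.81% of the 50-base windows of the longest Vmp1 transcript also occur in 2 other genes, Mir21a among them.

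**Figure D1:**
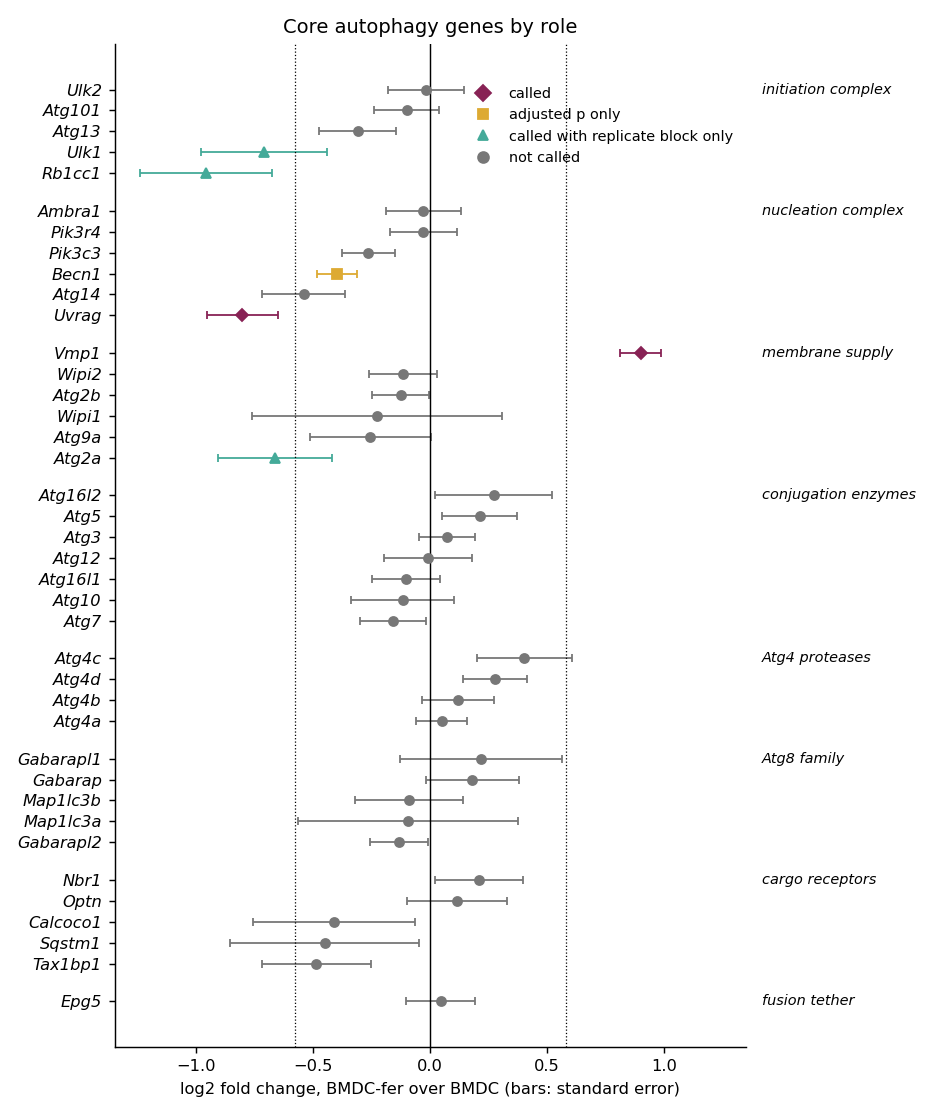
Log2 fold change of BMDC-fer over BMDC (x axis) for each of the 39 core autophagy genes, grouped by role, with points for the fitted value, bars for its standard error and dotted lines at an absolute value of 0.58. Vmp1 at 0.90 stands alone on the right, while the genes past the left line, Uvrag, Rb1cc1, Ulk1 and Atg2a, belong to initiation, nucleation and membrane supply.

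The initiation complex senses nutrient signals and sets off autophagosome formation, and 0 of its 5 genes were called. Rb1cc1 encodes FIP200, the scaffold of the complex, and had the lowest fold change of the 39 genes. It measured 33.2, 33.3, 72.4 and 65.5 CPM in BMDC replicates 1 to 4 and 23.1, 22.3, 29.7 and 30.1 CPM in BMDC-fer replicates 1 to 4. The groups did not overlap, but replicates 3 and 4 of BMDC lay far above replicates 1 and 2. The log2 fold change was -0.96 with a standard error of 0.282 and an adjusted p of 0.0594, which misses the threshold, while the two-sided exact permutation p of 0.0286 was the smallest that 4 against 4 allows. Under a block for the replicate number its adjusted p was 0.0213, and by DESeq2 0.0114, so both alternatives called it. Of the 50-base windows of its longest transcript, 12.0% also occur in other genes, mainly Gm13961. Ulk1, the kinase of the complex, measured 20.3, 22.7, 38.5 and 39.2 CPM in BMDC and 15.0, 14.2, 23.0 and 21.6 CPM in BMDC-fer, so that each BMDC-fer library lay below the BMDC library of the same number although the groups overlapped. Its log2 fold change was -0.71 (adjusted p = 0.116), and under the block the adjusted p was 0.0175. The other kinase, Ulk2, had the highest value of the complex at -0.02, from 37.9, 42.8, 30.5 and 33.0 CPM in BMDC and 29.1, 31.4, 43.6 and 38.4 CPM in BMDC-fer. Atg13 and Atg101, the adaptor subunits, had fold changes of -0.31 and -0.10 and did not pass the test.

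The nucleation complex makes the lipid signal on the growing membrane. Becn1, Pik3c3 and Pik3r4 form its common part, Atg14 directs it to autophagosomes, Uvrag takes the place of Atg14 in a second form that acts on endosomes, and Ambra1 is a regulator. The 6 fold changes had a median of -0.33, and 1 of the genes, Uvrag, was called. In 4 of the 6, Becn1, Pik3c3, Atg14 and Uvrag, all BMDC-fer libraries were below all BMDC libraries. Among all 39 genes the groups did not overlap for 6, where the background was 22.9%. Of these, 5 were lower (background 11.6%), the fifth being Rb1cc1, and 1 was higher (background 11.3%).

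Uvrag measured 57.7, 56.2, 82.3 and 81.7 CPM in BMDC replicates 1 to 4. In BMDC-fer it measured 43.5, 39.8, 38.5 and 37.4 CPM. The groups did not overlap, and the means were 69.5 ± 14.5 CPM (SD, n = 4) and 39.8 ± 2.67 CPM (SD, n = 4). The log2 fold change was -0.80 with a standard error of 0.153 and an adjusted p of 0.0147. The first replicate pair gave -0.45 and the second -1.11, and the difference between the pairs passed its own test (adjusted p = 0.00179). Without BMDC-fer replicate 4 the adjusted p was 0.0545 and the call was lost. Gm45187 on the opposite strand overlaps 1589 bases of the Uvrag exons but had at most 5 counts in any library.

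Becn1 measured 72.6, 73.4, 83.8 and 79.2 CPM in BMDC and 59.7, 58.4, 59.2 and 57.1 CPM in BMDC-fer. The BMDC-fer libraries lay close together below all BMDC libraries, at means of 58.6 ± 1.13 CPM (SD, n = 4) and 77.3 ± 5.28 CPM (SD, n = 4). Its log2 fold change of -0.40, with a standard error of 0.0865, passed the adjusted p (0.0237) but not the limit on fold change. With Becn1, 3 of the 39 genes passed the adjusted p alone, against 12.0% of all genes tested. Becn1 passed in 2 of the 8 fits with a library left out, with adjusted p up to 0.0790 in the others. The exons of Becn1 overlap 3104 bases of Cntd1 on the opposite strand, and 45.7% of the 50-base windows of its longest transcript also occur in other genes. Since the use of strand in counting is not stated, reads from the shared stretch cannot be told apart, and Cntd1 itself had between 2 and 24 counts per library.

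Atg14 measured 12.8, 13.8, 19.7 and 19.7 CPM in BMDC and 11.3, 10.0, 11.9 and 12.2 CPM in BMDC-fer, for a log2 fold change of -0.54 (adjusted p = 0.0815). Pik3c3, the lipid kinase itself, measured 25.4, 28.5, 25.1 and 24.5 CPM and 18.9, 22.4, 22.4 and 22.4 CPM, a log2 fold change of -0.26 (adjusted p = 0.153). Neither passed the test, but by DESeq2 Atg14 passed the adjusted p (0.0300) and not the limit on fold change (-0.54). Pik3r4 and Ambra1 had fold changes of -0.03 each, the values nearest to 0 in the complex, and both were above 0 in replicates 3 and 4 (0.20 and 0.28) and in some fits with a library left out.

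**Figure D2:**
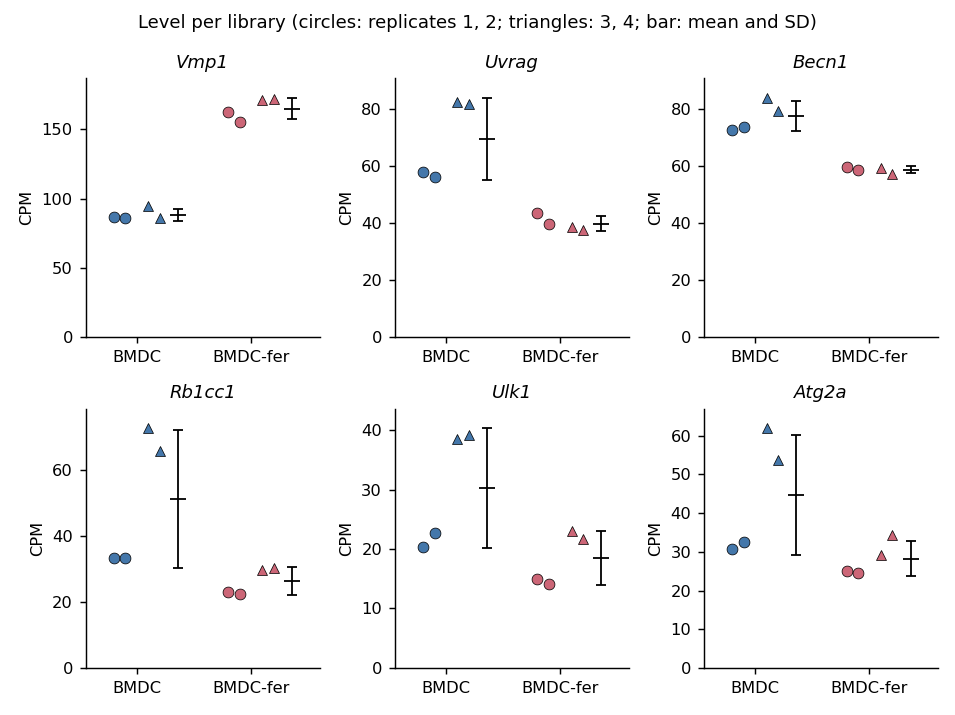
Level in CPM (y axis, from 0) of 6 core autophagy genes in each BMDC and BMDC-fer library, with circles for replicates 1 and 2, triangles for replicates 3 and 4, and a bar for the mean and SD of 4 libraries. Vmp1 is higher in every BMDC-fer library, and Uvrag, Becn1 and Rb1cc1 are lower in every one, while Ulk1 and Atg2a overlap between groups.

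Vmp1 was the only gene of the membrane supply group with a fold change above 0. Atg2a, which encodes a lipid transfer protein that bridges the endoplasmic reticulum and the growing membrane, had the lowest value of the group. It measured 30.7, 32.5, 61.9 and 53.8 CPM in BMDC and 25.1, 24.5, 29.1 and 34.3 CPM in BMDC-fer, and the groups overlapped through BMDC-fer replicate 4. The log2 fold change was -0.66 (adjusted p = 0.110), and the block gave an adjusted p of 0.0470. With the block, 5 of the 39 genes were called, Vmp1, Uvrag, Rb1cc1, Ulk1 and Atg2a, a share of 12.8% that was close to the 13.0% of all genes tested. Its paralog Atg2b had a fold change of -0.13, the lipid scramblase gene Atg9a, which shares 42.6% of its 50-base windows with other genes such as the overlapping Gm29253, one of -0.26, and the lipid-binding effectors Wipi1 and Wipi2 had -0.23 and -0.12, none of which passed the test.

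The conjugation genes, whose products join Atg12 to Atg5 and Atg8 family proteins to lipid, had a median fold change of -0.01, and 0 of 7 were called. The highest was Atg16l2, a relative of the scaffold Atg16l1, with 12.1, 9.64, 7.19 and 8.38 CPM in BMDC and 8.90, 7.93, 13.1 and 15.1 CPM in BMDC-fer, for a log2 fold change of 0.27. The lowest was Atg7, the activating enzyme, with 73.4, 81.2, 108 and 106 CPM in BMDC and 75.2, 87.4, 83.5 and 84.1 CPM in BMDC-fer, for a log2 fold change of -0.16. In both genes the groups overlapped. The Atg4 proteases, which trim Atg8 family proteins and release them again from lipid, all had fold changes above 0 and 0 of 4 were called. They ran from Atg4a at 0.05, with 15.1 to 17.4 CPM in BMDC and 15.8 to 17.6 CPM in BMDC-fer, to Atg4c at 0.40, with 8.49 to 14.3 CPM in BMDC and 12.1 to 18.4 CPM in BMDC-fer. Atg4a is uncertain because 63.6% of the 50-base windows of its longest transcript also occur in other genes, mainly its pseudogene Atg4a-ps.

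Of the Atg8 family, whose lipid-bound proteins coat the autophagosome, 0 of 5 genes were called. Gabarapl1 had the highest fold change, 0.22 (0.044 to 0.44 over the alternatives), with Gabarap at 0.18. It came from 70.9, 65.1, 156 and 144 CPM in BMDC and 94.8, 86.0, 168 and 158 CPM in BMDC-fer. Gabarapl2 had the lowest, -0.13, from 42.5, 37.3, 46.0 and 46.6 CPM in BMDC and 37.1, 33.7, 44.4 and 42.1 CPM in BMDC-fer. Map1lc3b, which encodes the LC3 protein most used as a marker of autophagosomes, measured 111, 128, 219 and 209 CPM in BMDC and 136, 142, 177 and 171 CPM in BMDC-fer. For Gabarapl1, Gabarapl2 and Map1lc3b the difference between replicate pairs was larger in each group than the difference between groups. For Gabarap this held in BMDC (0.75 on the log2 scale) but not in BMDC-fer (0.041). Epg5, the tether gene, had a fold change of 0.04, from 19.0 to 27.3 CPM in BMDC and 21.7 to 25.0 CPM in BMDC-fer.

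Among the 5 cargo receptors 0 were called, and for 4 of them, all but Calcoco1, the fold change differed between the replicate pairs. Sqstm1 encodes p62, which links ubiquitinated cargo to the Atg8 family and also activates the antioxidant response. It measured 275, 278, 904 and 877 CPM in BMDC replicates 1 to 4 and 428, 389, 440 and 449 CPM in BMDC-fer replicates 1 to 4. The BMDC-fer libraries lay close together, between the 2 pairs of BMDC libraries. Its log2 fold change was -0.45 over all libraries (adjusted p = 0.483), but 0.56 for replicates 1 and 2 and -1.0 for replicates 3 and 4, and the pairs differed (adjusted p = 6.57e-05). Mrnip on the opposite strand overlaps 580 bases of the Sqstm1 exons and had at most 71 counts in any library. Tax1bp1, a ubiquitin-binding receptor, had the lowest fold change of the group, -0.49 (adjusted p = 0.197). It measured 168, 158, 310 and 309 CPM in BMDC and 166, 164, 178 and 167 CPM in BMDC-fer, so that only replicates 3 and 4 of BMDC stood apart, with fold changes of 0.01 and -0.84 in the 2 pairs. Nbr1, a receptor related to Sqstm1, had the highest, 0.21 (adjusted p = 0.491), from 48.8, 51.3, 45.5 and 46.1 CPM in BMDC and 43.2, 41.0, 71.4 and 65.8 CPM in BMDC-fer. Here replicates 3 and 4 of BMDC-fer stood apart, with fold changes of -0.25 and 0.58 in the 2 pairs. Optn, the receptor optineurin, had a fold change of 0.12 and Calcoco1, a receptor for the endoplasmic reticulum and Golgi, one of -0.41.

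**Figure D3:**
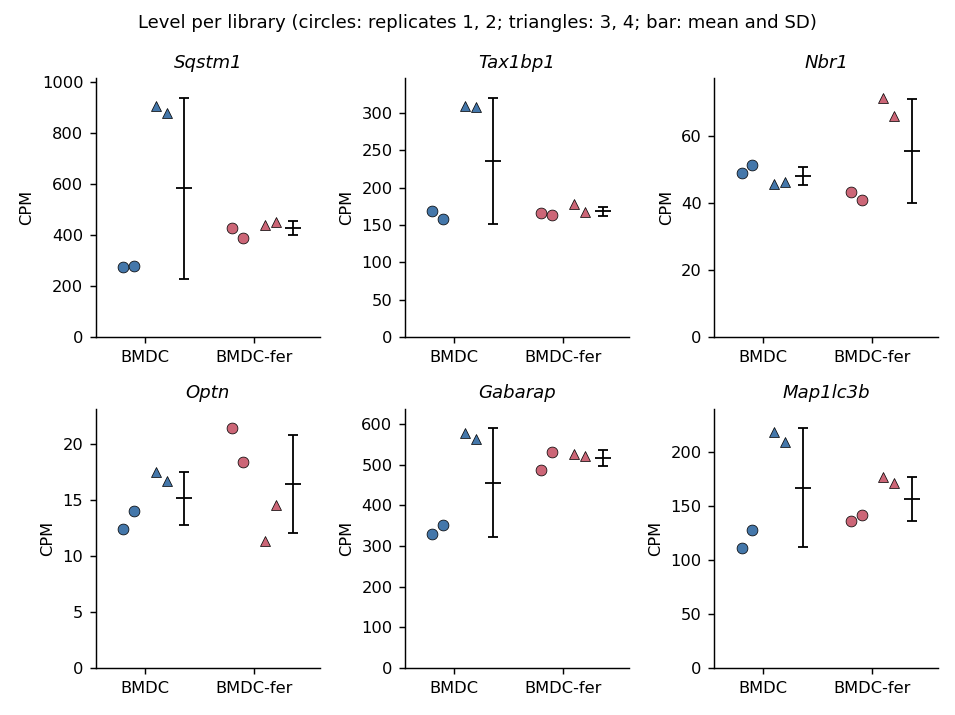
Level in CPM (y axis, from 0) of 4 cargo receptor genes and of Gabarap and Map1lc3b in each BMDC and BMDC-fer library, with circles for replicates 1 and 2, triangles for replicates 3 and 4, and a bar for the mean and SD of 4 libraries. For Sqstm1 the BMDC circles lie at 275 and 278 CPM and the BMDC triangles at 904 and 877 CPM, with all BMDC-fer libraries between them.

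The fold change differed between the replicate pairs for 21 of the 39 genes at the same limit on the adjusted p, against 37.8% of all genes tested. In 18 of these 21 the pairs had opposite signs, which is 46.2% of the 39 genes, against 23.6% of all genes tested. Over all 39 genes the signs were opposite in 23 (59.0%), and over all genes tested in 39.6%. Within replicates 1 and 2, 4 of the genes were called (background 22.3%), Vmp1, Gabarap and Optn higher and Atg9a lower. Within replicates 3 and 4, 11 were called (background 33.0%), Vmp1, Nbr1, Atg4c and Atg16l2 higher and Rb1cc1, Ulk1, Uvrag, Atg14, Atg2a, Sqstm1 and Tax1bp1 lower. Vmp1 was the only gene called in both. Each of these within-pair values rests on 2 libraries per group, with the spread estimated over all 8 libraries.

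In untreated BMDC, 30 of the 39 genes (76.9%) were higher in replicates 3 and 4 than in replicates 1 and 2, against 49.9% of all genes tested, and in BMDC-fer 32 (82.1%) were, against 52.0%. The gap between the pairs was smaller in BMDC-fer for 28 of the genes (71.8%, against 65.9% of all genes tested). Its median size on the log2 scale was 0.47 in BMDC and 0.32 in BMDC-fer, where all genes tested had 0.40 and 0.24. Together the 39 genes took between 0.230% and 0.351% of all counts in BMDC and between 0.239% and 0.276% in BMDC-fer.

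**Figure D4:**
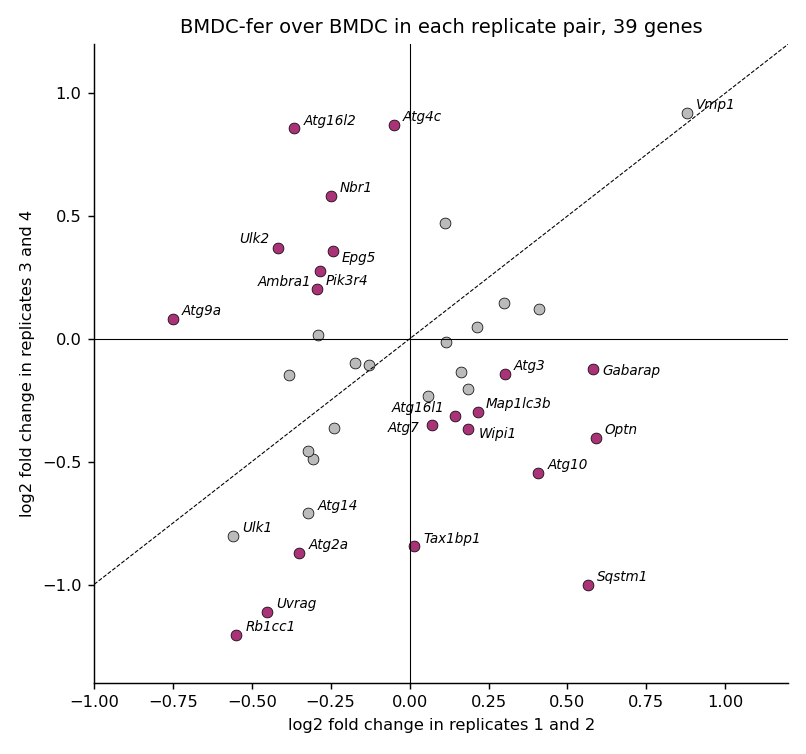
Log2 fold change of BMDC-fer over BMDC in replicates 1 and 2 (x axis) and in replicates 3 and 4 (y axis) for the 39 core autophagy genes, where the dashed line marks equal values and dark points mark the 21 genes whose fold changes differed between the pairs. Vmp1 lies on the line at 0.88 and 0.92, Rb1cc1, Uvrag and Ulk1 are below 0 in both pairs, and Sqstm1 is at 0.56 and -1.0.

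Levels of the genes among themselves were compared in BMDC as CPM per kilobase of annotated exon. Gabarap was highest at 247 (178 to 313 over the 4 libraries), followed by Sqstm1 at 174 (81.9 to 269), Gabarapl1 at 54.2 and Atg3, which encodes the lipid conjugating enzyme, at 31.5. Atg16l2 was lowest at 1.10 and Epg5 next at 2.24. Of 38 neighbours in this order, 35 had overlapping ranges over the BMDC libraries, and in 11 the higher gene was above the next in each of the 4 libraries, Gabarap above Sqstm1 among them. The other neighbours changed places between libraries. The 3 pairs without overlap lay between Sqstm1 and Gabarapl1, between Gabarapl2 (18.5) and Atg7 (13.2), and between Epg5 and Atg16l2. In BMDC-fer, Vmp1 stood at 42.7 CPM per kilobase, compared with 22.9 in BMDC.

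Genes around the core were read from a second list of 73 autophagy genes, of which 72 were tested. Of the 72, 11 were called (15.3%), compared with the background of 9.38%. By direction, 8 were higher (background 3.47%) and 3 lower (background 5.91%). The list was chosen with earlier results of these data known, so its share is not independent evidence. Of the 31 genes of mTORC1, AMPK and TFEB control, 6 were called higher and 2 lower. The 14 genes for fusion with lysosomes had 1 called higher, the 17 other selective receptors 1 higher and 1 lower, and the 10 further genes of autophagosome formation 0. The median fold change was 0.08 over the 72 genes, -0.10 over the 39 core genes and 0.00 (0.000687) over all genes tested.

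Plekhm1, an adaptor that brings lysosomes to autophagosomes, had the highest fold change of the second list. It measured 60.1, 73.2, 43.1 and 47.1 CPM in BMDC and 115, 122, 107 and 113 CPM in BMDC-fer, for a log2 fold change of 1.03 with a standard error of 0.167 and an adjusted p of 0.00862. Fnip2, partner of folliculin at the lysosome surface, measured 145, 178, 168 and 166 CPM in BMDC and 317, 287, 284 and 321 CPM in BMDC-fer, for a log2 fold change of 0.88 with a standard error of 0.104 and an adjusted p of 0.0034. Every BMDC-fer library of both genes lay above every BMDC library.

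Lamtor3, a subunit of the Ragulator scaffold that holds mTORC1 at lysosomes, rose from 75.2, 88.9, 78.7 and 75.6 CPM to 126, 137, 137 and 138 CPM (log2 fold change 0.75, adjusted p = 0.00366). Ncoa4, the receptor that delivers ferritin to lysosomes and so frees iron, rose from 203, 228, 157 and 163 CPM to 298, 347, 316 and 291 CPM (log2 fold change 0.74, adjusted p = 0.0154). Mitf, a transcription factor of lysosomal genes, measured 27.2, 40.3, 50.1 and 54.6 CPM in BMDC and 72.1, 72.2, 71.9 and 77.7 CPM in BMDC-fer (log2 fold change 0.77, adjusted p = 0.0387). The Mitf call is the least firm of these, being made in 2 of the 8 fits with a library left out. The other 3 called higher, named after their values were seen, were Akt1s1, an inhibitory subunit of mTORC1, at 0.72, Tfeb, a master regulator of lysosomal and autophagy genes, at 0.69, and Flcn, the folliculin gene, at 0.62.

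Of the genes called lower, Sesn3 and Sesn2 encode sestrins, stress-induced inhibitors of mTORC1. Sesn3 measured 22.2, 16.9, 11.7 and 10.3 CPM in BMDC and 4.59, 2.23, 4.00 and 2.41 CPM in BMDC-fer, for a log2 fold change of -2.20 with a standard error of 0.334 and an adjusted p of 0.00702. Sesn2 measured 77.4, 59.4, 50.5 and 50.3 CPM in BMDC and 29.6, 25.2, 31.0 and 30.8 CPM in BMDC-fer, for a log2 fold change of -1.03 with a standard error of 0.158 and an adjusted p of 0.00746. Both were called in all 8 fits with 1 library left out. Ccpg1, a receptor for the endoplasmic reticulum, had a log2 fold change of -1.91 (adjusted p = 0.0247), but it was scarce, with means of 0.388 CPM for BMDC and 0.101 CPM for BMDC-fer, 88.3% of its 50-base windows are shared with other genes, mainly the overlapping Gm44503, and it was called in 2 of those 8 fits. A pair of further genes is given after their values were seen. The third sestrin gene, Sesn1, had a fold change of 0.60 (adjusted p = 0.135) and was called higher under the replicate block (adjusted p = 0.0424). Ddit4, another stress-induced inhibitor of mTORC1, had the lowest fold change of the second list, -2.34 (adjusted p = 0.0795), from 4.68, 4.91, 37.9 and 34.4 CPM in BMDC and 2.35, 2.18, 5.94 and 5.71 CPM in BMDC-fer. It was not called, but passed under the block (adjusted p = 0.0214) and by DESeq2 (adjusted p = 0.00538).

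**Figure D5:**
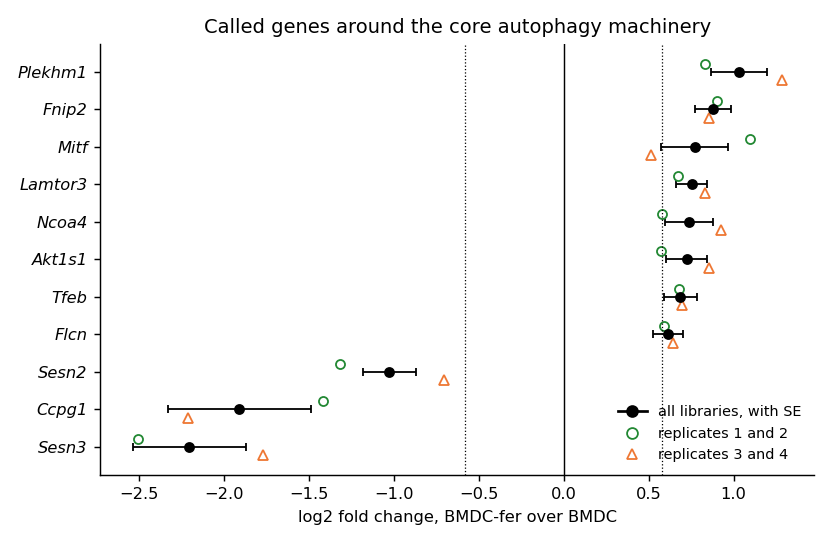
Log2 fold change of BMDC-fer over BMDC (x axis) for the 11 called genes of the second list, with filled points and bars for the fitted value and its standard error over all libraries, open circles for replicates 1 and 2, open triangles for replicates 3 and 4, and dotted lines at an absolute value of 0.58. All 11 genes have the same sign in both replicate pairs, from Plekhm1 at 1.03 to Sesn3 at -2.20.

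The 250 bases before each start in RefSeq's GRCm38.p6 table, given for 32 of the 39 core genes and 63 of the 73 others, were searched on both strands for the binding motifs of factors known to act on autophagy genes. The element bound by Tfeb and Mitf, GTCACGTG, was found for 2 of the 32 core genes, Atg3 and Atg7 (6.25%), for 9.52% of the others and for 2.11% of all 27025 genes with a window. Its inner E-box CACGTG, which lies within that element, was found in 9.38%, 19.0% and 6.86%. The antioxidant response core TGACNNNGC was found in 12.5% of core genes (Atg13, Tax1bp1, Ulk2 and Vmp1), 15.9% of the others and 11.5% of all genes, and in the window printed above for Vmp1 it is read on the reverse strand. The amino acid response core TGATGNAA was found in 0 core genes and 3.91% of all genes, and the FOXO element GTAAACA in 0 core genes and 3.54% of all genes. The Uvrag window printed above held none of these letters. Neither Atg3 nor Atg7, with the Tfeb element, passed the test, at log2 fold changes of 0.07 and -0.16. None of the 6 genes of the second list with this element passed either. Their fold changes ran from -0.36 for Retreg1 to 0.59 for Vps33a. Whether Tfeb acts on any of these genes was not tested.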

How the data were processed

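Mouse RNA-seq was measured in 4 BMDC and 4 BMDC-fer libraries prepared with oligo(dT). The authors mapped reads with HISAT2 to mm10, named in the submitters' processing notes, assigned them to genes by featureCounts (Rsubread) and deposited these raw counts without normalization. Tool versions, strand settings and the treatment of multimapping reads are not given in the sources used here. Counts on the human genome are not analysed here. Group and replicate number were read from each library's labels.

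Gene symbols, positions and exon lengths came from GENCODE M21 (GRCm38), which named 55141 of 55487 genes. Tests were run in edgeR 4.0.16 under R 4.3.3: TMM scaling, filterByExpr with a count minimum of 10 (15411 genes kept), quasi-likelihood tests without a block, and Benjamini-Hochberg adjustment over all genes tested. Calls needed an adjusted p no higher than 0.05 and a log2 fold change of at least 0.58 in either direction. For single genes, log2(CPM + 0.5) also entered an exact permutation test, two-sided, which cannot give a p below 0.0286. Fold changes within replicate pairs and their difference came from one model over all 8 libraries. Alternatives were DESeq2 1.42.0 and its size factors, other filters, a pseudocount of 0.05, the replicate block and each library left out, and, chosen after seeing the data, the calls within each replicate pair.

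Same-numbered BMDC and BMDC-fer libraries deviated together from their group means (r across genes 0.333 to 0.470, above 0.1 for each of the 4 numbers). The replicate block took these numbers as pairs. For libraries of other numbers the mean r was 0.320 within the same replicate pair and -0.355 across. Of the 4 BMDC libraries, 2 correlated best with their own number. Other numbers of the same replicate pair thus also exceeded 0.1 on average, so these values do not show that equal numbers are pairs. Chi-square per gene between libraries of a group was 8.24 to 36.5 within a replicate pair and 123 to 307 across, so no library was a copy of another. At these depths 3 counts, the floor, equal 0.0594 to 0.0763 CPM, which covers counting error only. Windows of 50 bases from the longest annotated transcript of each gene were compared, on both strands, with the transcripts of all other genes to find shared sequence.

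The 39 genes, the second list and the markers were chosen with earlier results of these data known. All members may be named. Full values are given for those past the adjusted p or without overlap and for the highest and lowest of each role, and for up to 5 rises and 5 falls of the second list.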

Additional observations from a re-analysis of the deposited data

Results flagged for a closer look

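The fold change between BMDC-fer and BMDC differed between replicates 1 and 2 and replicates 3 and 4 (edgeR's test of the difference itself, adjusted p of 0.05 or less) for 21 of the 39 core autophagy genes. Of all genes tested, 37.8% differed in this way. The values that follow are the log2 fold change in replicates 1 and 2 minus that in replicates 3 and 4. Among genes of formation, it was -0.78 for Ulk2, 0.66 for Rb1cc1, -0.50 for Pik3r4, 0.66 for Uvrag, -0.56 for Ambra1, 0.55 for Wipi1, 0.52 for Atg2a and -0.83 for Atg9a. Among genes of conjugation and processing, it was 0.44 for Atg3, 0.42 for Atg7, 0.95 for Atg10, 0.46 for Atg16l1, -1.22 for Atg16l2 and -0.92 for Atg4c. In the Atg8 family it was 0.51 for Map1lc3b and 0.71 for Gabarap. Among the receptors and the tether it was 1.57 for Sqstm1, 0.99 for Optn, -0.83 for Nbr1, 0.86 for Tax1bp1 and -0.60 for Epg5. The labels give nothing that separates the pairs.

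In 4 of 100 groups of 4 libraries, 1 library lay apart from the other 3. Chance gives about 5 for independent libraries. The libraries here fell into replicate pairs, so that figure does not apply to them and nothing is concluded from it. The gap to the nearest library, as a share of the group's range, was 0.988 for Pik3c3 in BMDC-fer replicate 1, 0.936 for Vmp1 in BMDC replicate 3, 0.934 for Mitf in BMDC-fer replicate 4 and 0.918 for Lamtor3 in BMDC-fer replicate 1.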

How the results depend on the processing

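With the replicate block, 5 core genes were called (background 13.0%) and 6 passed the adjusted p alone, and by DESeq2 5 passed the adjusted p alone. Leaving out 1 library gave 1 to 3 core genes called, 1 to 4 past the adjusted p alone, 9 to 14 genes of the second list called and 13 to 21 core genes with a difference between the replicate pairs, which was 13 without BMDC replicate 3. Without BMDC-fer replicate 4, Vmp1 was the only core gene called. Calls within replicates 1 and 2, chosen after seeing the data, were 4 core genes and 15 of the second list (background 22.3%). Within replicates 3 and 4 they were 11 and 28 (background 33.0%). The adjusted p alone was passed by 21 core genes in replicates 1 and 2 and by 24 in replicates 3 and 4. No share of all genes is given here for counts past the adjusted p alone or for fits with 1 library left out. Those counts therefore cannot be read as particular to the core genes or to the second list. Ulk2 turned to 0.00 (0.0014) with no filter on low counts, and Atg12 to 0.01 (0.0139) with no filter and to 0.02 (0.0152) with the replicate block. Among named genes, the replicate block changed the calls of Rb1cc1, Ulk1, Atg2a, Sesn1 and Ddit4, each called with the block and not in the main test. By DESeq2, Rb1cc1 (adjusted p = 0.0114) and Ddit4 (adjusted p = 0.00538) were called too. Left-out libraries also turned the sign of genes near 0, over a range of -0.13 to 0.082 for Ulk2, -0.12 to 0.055 for Pik3r4, -0.15 to 0.076 for Ambra1, -0.51 to 0.088 for Wipi1, -0.24 to 0.051 for Atg10, -0.12 to 0.10 for Atg12, -0.37 to 0.18 for Map1lc3a, -0.24 to 0.068 for Map1lc3b, -0.027 to 0.26 for Optn and -0.028 to 0.16 for Epg5. Uvrag lost its call without BMDC-fer replicate 4 (adjusted p = 0.0545). Becn1 passed the adjusted p and Rb1cc1 was called without BMDC replicate 1 or 2 and in no other such fit. Mitf was called without BMDC replicate 1 or 4 and in no other (adjusted p up to 0.0978), and Ccpg1 without BMDC replicate 1 or 2 and in no other (up to 0.0668). The cause of these changes was not tested. Without a filter on low counts the adjusted p was 0.0505 for Ccpg1 and 0.0841 for Becn1, and Ccpg1 did not pass the filter of 1 CPM in 4 libraries, so that setting gives no value for it. The exact permutation p was the same with either pseudocount for all 50 genes compared.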
